A study of Arabidopsis thaliana with 8 samples.

Results

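The genes described here are 10 transcription factors of the epidermis and the cuticle in Arabidopsis thaliana. They were chosen by locus: the homeodomain genes ATML1 (AT4G21750) and PDF2 (AT4G04890), the AP2/ERF genes SHN1 (AT1G15360), SHN2 (AT5G11190) and SHN3 (AT5G25390), and the MYB genes MYB106 (AT3G01140), MYB16 (AT5G15310), MYB30 (AT3G28910), MYB94 (AT3G47600) and MYB96 (AT5G62470). All non-control probes whose RefSeq transcript belongs to one of these loci were taken, which gave 15 of the 43603 probes and 10 of the 25410 loci with a probe. Whole stems that had grown to 10 cm were profiled on 8 single-colour Agilent arrays. The CEF2-VP16 nst1 nst3 plants, on 4 arrays, carried NST3pro:CEF2-VP16:HSP in the nst1-1 nst3-1 double mutant of Col0, and the nst1 nst3 plants, on the other 4, were the same double mutant without the construct. Both groups thus lack the fiber NAC factors NST1 and NST3, and neither is wild type. The NST3 promoter is a fiber promoter, and VP16 is a viral domain that turns a transcription factor into a strong activator. CEF2 is the name used in the sample labels for the AP2/ERF factor that the series' design text calls ERF035. The labels state neither how many transgenic lines were used nor whether each array had its own plants, so the p-values below reflect how far these samples scattered, and that scatter may be purely technical.

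The plant epidermis is the outermost cell layer and covers itself with the cuticle, a sheet of the polyester cutin filled and coated with waxes. ATML1 and PDF2 are closely related HD-ZIP IV proteins that act together to give cells epidermal identity. The SHN proteins switch on cutin and wax genes, MYB106 and MYB16 do so for cutin and shape epidermal outgrowths, and MYB30, MYB94 and MYB96 drive the making of very-long-chain fatty acids and waxes. MYB30 is also known for promoting the hypersensitive cell death of infected tissue, and MYB96 for relaying drought and abscisic acid signals.

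Each level below is log2 of the probe's processed signal over the 75th percentile of its array, with a floor at -6.64, which is 0.01 of that percentile. The 75th percentile itself was 2344 to 3255 units on the transgenic arrays and 2774 to 3642 on the nst1 nst3 arrays. The 4 transgenic arrays lay on 1 slide and the 4 nst1 nst3 arrays on another, so slide and genotype cannot be told apart. On the transgenic arrays Agilent's E1A spike-in probes stood 0.38 to 0.50 log2 units above the nst1 nst3 arrays, and scaling on them lowered the difference of the median gene by 0.44. Differences are therefore relative to the 75th percentile. Values with spike-in scaling are given for every tested member and for part of the other genes. A difference given without such a value may also change with that scaling. ERF035 (AT3G60490), the gene of the transgene, stood 7.72 ± 0.68 log2 units higher in the transgenic stems (SE, 4 arrays against 4). In whole stems, fewer cells of a type and less RNA per cell cannot be told apart.

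Of the 10 genes, 8 cleared the background clearly enough to be tested (flagged well above it by the scanner software on 4 or more of the 8 arrays). In the transgenic stems 5 of the 8 rose, 1 fell and 2 did not pass (limma, Benjamini-Hochberg adjusted p under 0.05 over all 19609 genes tested). Of the 5, MYB106 entered mainly through the transgenic arrays and lay at the floor on all 4 nst1 nst3 arrays. When the flag was required on all 8 arrays, 4 of 7 members rose and 1 fell. Among all genes tested, 29.5% were higher and 24.8% lower; scaling on the spike-in probes made these shares 10.9% and 40%. Levels were fully separated between the genotypes for 6 of the 8 genes and for 50.7% of all genes, and 54.2% of all genes were called in either direction, so these counts alone do not set the 8 genes apart. Their median difference was 0.82 log2 units, against 0.03 for all genes tested. When the spike-ins set the scale, 2 members were called higher and 1 lower, and the medians were 0.38 for the 8 genes and -0.39 for all genes. The members moved in opposite directions, with the largest rise in MYB16, a fall in MYB96, and SHN1 and SHN2 near or below the limit of detection.

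**Figure D1:**
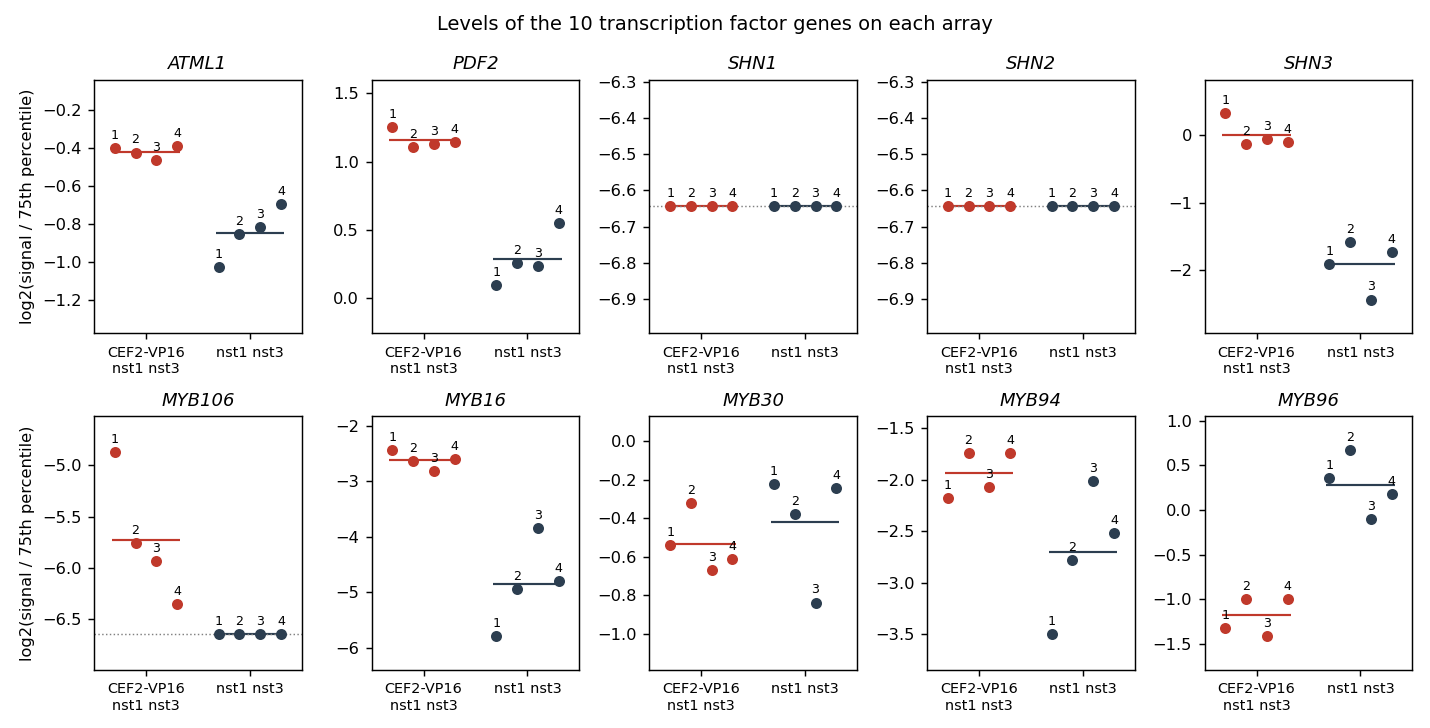
Level of each of the 10 genes on each array, as log2 of processed signal over the array's 75th percentile, with the CEF2-VP16 nst1 nst3 arrays (red) left of the nst1 nst3 arrays (dark). Numbers are the array numbers of the labels, bars are group means and the dotted line is the floor at -6.64. PDF2, SHN3 and MYB16 lie higher on every transgenic array and MYB96 lies lower, while MYB30 and MYB94 overlap and SHN1 and SHN2 sit at the floor on all arrays.

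The identity factors came first in the comparison. PDF2 read 1.25, 1.11, 1.13 and 1.14 on transgenic arrays 1 to 4, against 0.09, 0.26, 0.24 and 0.55 on nst1 nst3 arrays 1 to 4. The transgenic arrays were all higher and lay within a narrow band, and among the nst1 nst3 arrays the fourth came closest to them. The difference was 0.87 ± 0.11 log2 units (SE), 1.83-fold, with a limma adjusted p of 0.000391. A second probe for PDF2 gave 0.73 ± 0.12 (limma adjusted p = 0.00155 with each probe tested on its own). With spike-in scaling PDF2 stood only 0.44 higher and did not pass (limma adjusted p = 0.102).

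ATML1, the closest relative of PDF2, read -0.40, -0.42, -0.46 and -0.39 on the transgenic arrays, against -1.02, -0.85, -0.82 and -0.70 on the nst1 nst3 arrays. The groups did not overlap, and the difference of 0.43 ± 0.09 passed (limma adjusted p = 0.00383). It was a small one, however, and it rested on the brighter of 2 probes. The dimmer probe averaged -4.22 ± 0.30 in the transgenic stems and -4.15 ± 0.09 in nst1 nst3 stems (SD, n = 4 each), a difference of -0.074 that did not pass (limma adjusted p = 0.706). Spike-in scaling brought the brighter probe to -0.0089, so the rise of ATML1 depended on both the probe and the scaling.

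The 2 identity factors did not move by the same amount. Set against each other within each array, which removes any scaling of the array, ATML1 stood 0.45 log2 units lower relative to PDF2 in the transgenic stems than in nst1 nst3 stems. By exact permutation (two-sided, 70 ways to assign the 8 arrays) p was 0.0286, the smallest possible here, or 0.0381 adjusted over the 4 pairs of relatives compared. This holds for the brighter probe of each gene, and these pairs were chosen after the data had been seen.

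Among the 3 SHN genes only SHN3 could be measured. It read 0.32, -0.14, -0.06 and -0.10 on the transgenic arrays, against -1.91, -1.59, -2.44 and -1.73 on the nst1 nst3 arrays. Every transgenic array lay well above every nst1 nst3 array, with transgenic array 1 the highest and nst1 nst3 array 3 the lowest. SHN3 rose 3.80-fold, by 1.93 ± 0.20 log2 units (SE; limma adjusted p = 0.000193). Its second probe gave 1.96 ± 0.19, and with spike-in scaling the rise was 1.49 (limma adjusted p = 0.00152).

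SHN1, also called WIN1, for which the clade is best known, had a processed signal of 5.80 to 23.0 units on the transgenic arrays and 3.74 to 9.71 units on the nst1 nst3 arrays. It cleared the background on 1 transgenic array and on 0 nst1 nst3 arrays. SHN2 had signals of 3.95 to 6.28 units in transgenic stems and 3.61 to 5.46 units in nst1 nst3 stems, and was well above background on none of the 8 arrays. Both lay at the floor of the scale in every sample, so a difference between the groups was not detectable for either gene, and no fold is given.

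The MIXTA-like genes MYB16 and MYB106 followed. MYB16 read -2.43, -2.63, -2.81 and -2.60 on the transgenic arrays, against -5.80, -4.94, -3.84 and -4.80 on the nst1 nst3 arrays. The transgenic arrays lay close together, whereas the nst1 nst3 arrays spread over nearly 2 log2 units, with array 1 the lowest and array 3 the highest. MYB16 rose by 2.23 ± 0.36 (SE), 4.69-fold, the largest difference among the tested members (limma adjusted p = 0.00137). It rose by 1.91 without nst1 nst3 array 1, by 2.56 without array 3, and by 1.79 with spike-in scaling, passing each time.

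MYB106, also known as NOECK for its part in trichome branching, was dim throughout. It read -4.87, -5.76, -5.93 and -6.35 on the transgenic arrays, against the floor of -6.64 on all 4 nst1 nst3 arrays. It was well above background on 3 transgenic arrays and on 1 nst1 nst3 array, so it entered the test mainly through the transgenic stems and had to differ there. The difference was 0.91 ± 0.28 (limma adjusted p = 0.0233), but it did not pass without nst1 nst3 array 1 (0.0518) or 4 (0.051), or with spike-in scaling (0.72; 0.104). The floor sets its size: at a floor of 0.001 of the 75th percentile the difference was 1.74 (limma adjusted p = 0.0036). In scanner units the signal ran from 29.6 to 111 in the transgenic stems and from 12.0 to 28.2 in nst1 nst3 stems. A second probe for MYB106 was well above background on 3 transgenic arrays and no nst1 nst3 array and was not tested.

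Of the 3 wax MYB genes only MYB96 passed. MYB96 read -1.32, -0.99, -1.41 and -0.99 on the transgenic arrays, against 0.36, 0.67, -0.10 and 0.17 on the nst1 nst3 arrays. No transgenic array reached the lowest nst1 nst3 array. MYB96 fell by 1.46 log2 units (SE 0.18), to 2.74 times below its level in nst1 nst3 stems (limma adjusted p = 0.000408). With spike-in scaling the difference was -1.89, and in the fits that left out 1 array it lay between -1.58 and -1.33.

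MYB94, the closest relative of MYB96, read -2.18, -1.75, -2.07 and -1.74 on the transgenic arrays, against -3.49, -2.78, -2.01 and -2.52 on the nst1 nst3 arrays. Here nst1 nst3 array 3 lay inside the range of the transgenic arrays while the other nst1 nst3 arrays lay below it. The difference of 0.77 ± 0.29 had a 95% interval for this gene alone of 0.10 to 1.43 and did not pass over all genes (limma adjusted p = 0.0539; exact two-sided permutation p = 0.0857). It passed without nst1 nst3 array 3, at 0.99 (limma adjusted p = 0.0119), and read 0.50 without array 1 (0.0848) and 0.33 with spike-in scaling (0.34).

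MYB30 read -0.54, -0.32, -0.67 and -0.61 on the transgenic arrays, against -0.22, -0.38, -0.84 and -0.24 on the nst1 nst3 arrays. The groups overlapped over most of their range. The difference was -0.12, with a 95% interval of -0.47 to 0.24, and did not pass (limma adjusted p = 0.549). A second probe for MYB30 gave 0.02 ± 0.17. With spike-in scaling MYB30 stood at -0.55 (limma adjusted p = 0.0577).

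**Figure D2:**
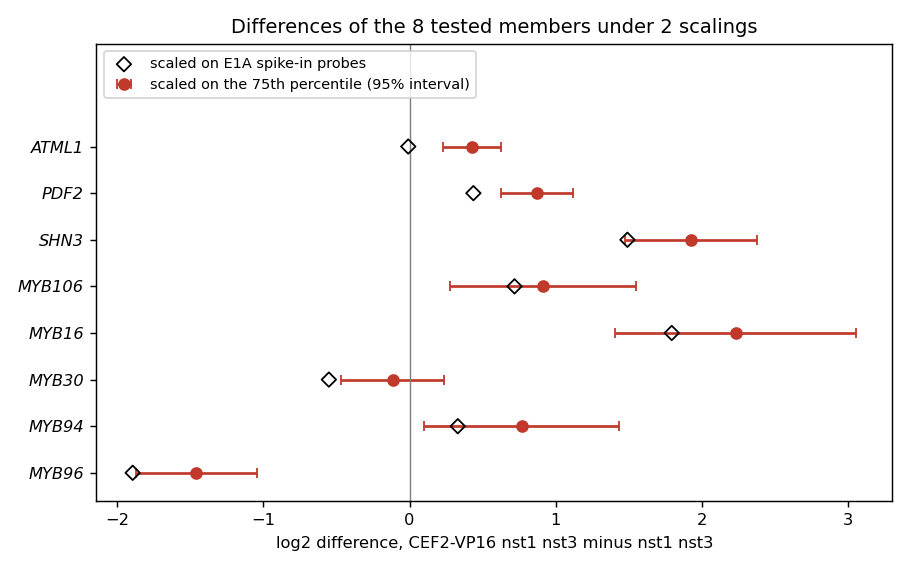
Difference of each of the 8 tested members between CEF2-VP16 nst1 nst3 and nst1 nst3 stems in log2 units, as filled points with 95% intervals for scaling on the 75th percentile and as open diamonds for scaling on E1A spike-in probes. MYB16 and SHN3 lie highest under both scalings and MYB96 lowest, while ATML1 moves from 0.43 to -0.0089 when the spike-ins set the scale.

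Within arrays, the change of MYB94 exceeded that of MYB96 by 2.22 log2 units and that of MYB30 exceeded it by 1.34. Both passed the exact permutation test at its smallest value (p = 0.0286; 0.0381 adjusted over the 4 pairs), and the 2 groups of arrays did not overlap for either. MYB30 and MYB94 differed in their change by 0.88 in favour of MYB94, which did not pass (exact permutation p = 0.114). MYB96 therefore moved apart from both relatives, whichever way the arrays were scaled. A further member of their MYB subgroup, MYB31, rose by 1.43 ± 0.24 (limma adjusted p = 0.00162), with levels of 0.75 to 1.07 on the transgenic arrays and -0.98 to 0.07 on the nst1 nst3 arrays. MYB60, the guard cell member of that subgroup, stood at -0.26 ± 0.27 and did not pass (limma adjusted p = 0.445). With spike-in scaling MYB60 read -0.70 (limma adjusted p = 0.0881).

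Genes of the cutin and wax pathways, on which several of these factors are known to act, were counted from lists. Which of the listed genes each factor switches on in these stems was not tested. Of 18 listed cutin genes 16 were tested, and 15 of them rose while none fell. Their median difference was 1.53 log2 units, or 1.09 with spike-in scaling. With spike-in scaling 11 of the 16 rose. DCR, the exception to the 15, stood at 0.20 ± 0.08 (limma adjusted p = 0.0557), or at -0.23 with spike-in scaling. Among the 15, AT4G24140 lay at the floor on all 4 nst1 nst3 arrays and entered mainly through the transgenic arrays. When the flag was required on all 8 arrays, 12 of 13 cutin genes rose. The other 2 listed genes, ABCG13 and AT5G33370, were well above background on 1 array each and were not tested. These counts stand beside 29.5% rising among all genes tested, or 10.9% with spike-in scaling.

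CYP86A4, a cytochrome P450 that oxidises cutin monomers, read 0.14, -1.04, -1.14 and -0.85 on the transgenic arrays, against -6.03, -2.76, -6.64 and -5.93 on the nst1 nst3 arrays. It rose by 4.62 ± 0.80 (SE, limma adjusted p = 0.00197), or by 5.48 without nst1 nst3 array 2, the array nearest to the transgenic ones. Without nst1 nst3 array 3 CYP86A4 rose by 4.18, and with another background correction (normexp) by 3.38. LTL1, a GDSL lipase-like protein, rose by 4.19 ± 0.56 and the P450 gene CYP86A7 by 3.53 ± 0.50 (limma adjusted p = 0.000605 and 0.000754). Both were well above background on 2 of the 4 nst1 nst3 arrays and at the floor on 2, so the size of their rises depends on the processing. At the floor of 0.001 they read 5.45 and 4.35, with normexp 3.08 and 2.51, and with spike-in scaling 3.85 and 3.20. Nst1 nst3 array 2 was again the highest nst1 nst3 array for both, and without it LTL1 rose by 4.78. The acyltransferase genes GPAT4, GPAT6 and GPAT8, named after their values were seen because they join the monomers to glycerol, rose by 1.75, 2.54 and 2.92.

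All 21 listed wax genes were tested, and 19 rose while none fell, against 29.5% rising among all genes tested. The median difference of the 21 was 1.00 log2 units. With spike-in scaling that median was 0.56, and 10 of the 21 rose, against 10.9% of all genes. CER4, the reductase that makes primary alcohols of stem wax, read 2.75, 2.09, 2.17 and 1.95 on the transgenic arrays, against -4.38, 0.48, -5.63 and -1.37 on the nst1 nst3 arrays. All transgenic arrays were higher, but the nst1 nst3 arrays spread over 6 log2 units. CER4 rose by 4.96 ± 1.2 (SE; limma adjusted p = 0.00972), by 6.03 without nst1 nst3 array 2 and by 3.99 without array 3. WSD1, the wax ester synthase, rose by 3.63 ± 0.65 (limma adjusted p = 0.00235) and the lipid transfer protein gene LTPG1 by 2.26 ± 0.54 (limma adjusted p = 0.00835). WSD1 lay at the floor on nst1 nst3 array 3, so the size of its rise depends on the processing. It read 2.80 with normexp, 3.23 with spike-in scaling and 3.80 at the floor of 0.001. LTPG1 read 0.12 on nst1 nst3 array 2, close to the 0.46 to 1.25 of the transgenic arrays. The elongase genes KCS9 and KCS20 stood at 0.23 and 0.13, or at -0.21 and -0.31 with spike-in scaling, and did not pass under either scaling. KCS1 and KCS2, elongase genes known as targets of MYB96 and named after their values were seen, rose by 0.37 and 1.38, with groups that overlapped for KCS1. With spike-in scaling neither passed, and KCS1 stood at -0.066 and KCS2 at 0.94.

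**Figure D3:**
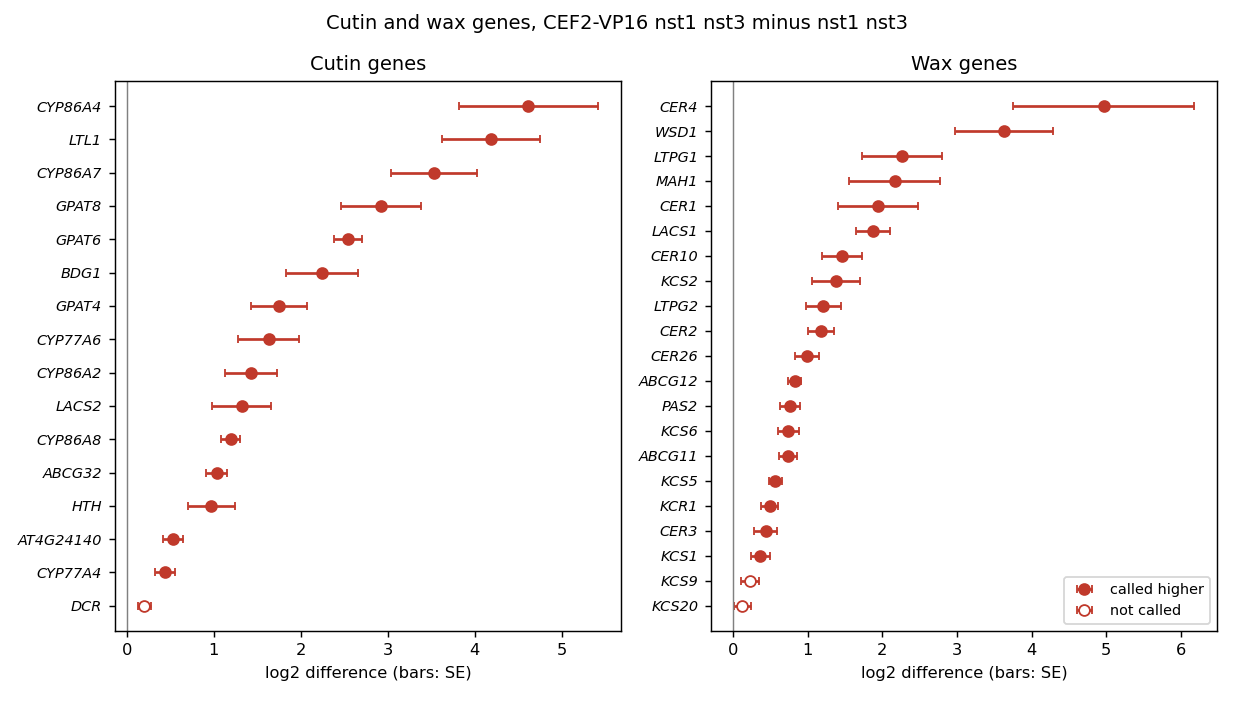
Differences of the tested cutin genes (left) and wax genes (right) in CEF2-VP16 nst1 nst3 against nst1 nst3 stems, in log2 units with standard errors. Filled points were called higher and open points were not called. All points lie above 0, and 3 of them (DCR, KCS9 and KCS20) were not called. With spike-in scaling 15 of the 16 cutin and 18 of the 21 wax differences lay above 0.

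Genes of epidermal identity and surface sensing moved less than the cuticle genes. Of 6 tested members of that list 3 rose and 1 fell, with a median of 0.30, which was -0.13 with spike-in scaling. Among all genes tested 29.5% rose and 24.8% fell, so these few calls alone do not set the list apart. ACR4, a receptor kinase of the outer cell layer, rose by 0.82 ± 0.12, the elongase gene FDH by 0.52 ± 0.09 and the receptor-like kinase gene ALE2 by 0.36 ± 0.10 (limma adjusted p = 0.000995, 0.00148 and 0.016). With spike-in scaling none of the 3 passed, at 0.39, 0.088 and -0.075. DEK1, a calpain needed for epidermal fate, fell by 0.31 (SE 0.11, limma adjusted p = 0.0407), a call lost in 6 of 8 fits with an array left out. With spike-in scaling DEK1 stood at -0.74 (limma adjusted p = 0.0175). PDF1, a gene active in the outer layer and bound by ATML1 and PDF2, stood at 0.08 ± 0.18 and did not pass (limma adjusted p = 0.718). With spike-in scaling PDF1 read -0.32 and did not pass either. Of the other 14 HD-ZIP IV genes 8 were tested and 1 rose. The median of the 8 was 0.06, or -0.24 with spike-in scaling. Of the 8, HDG9 entered only through the nst1 nst3 arrays and lay at the floor on all 4 transgenic arrays. HDG8 lay at the floor on 2 transgenic and 3 nst1 nst3 arrays. The gene that rose, HDG1, did so by 0.53 ± 0.11 (limma adjusted p = 0.00448), and it read 0.094 with spike-in scaling and did not pass.

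Of 10 further cuticle and MYB regulators 7 were tested, and 4 rose and none fell, against 29.5% higher and 24.8% lower among all genes tested. Counts from so few genes do not set the list apart. The 4 that rose were MYB31, WRI4, DEWAX and MIEL1. WRI4, an AP2 factor that promotes wax synthesis in stems, rose by 1.23 ± 0.14 (limma adjusted p = 0.000321). DEWAX, an ERF factor that represses wax genes, rose by 1.55 ± 0.53 (limma adjusted p = 0.0372), with levels of 2.19, 2.79, 2.42 and 2.53 in the transgenic stems, against 0.92, 0.99, 2.37 and -0.55 in nst1 nst3 stems. The groups overlapped, and DEWAX lost its call in 6 of 8 fits with an array left out. MIEL1, a ubiquitin ligase that targets MYB30 and was named after its values were seen, rose by 0.59 ± 0.11 (limma adjusted p = 0.00285), and read 0.15 with spike-in scaling. That scaling left 2 of the 7 regulators called higher, MYB31 (0.99) and WRI4 (0.79), and 2 called lower, MYB17 (-0.87) and AT2G33510 (-1.32). Among all genes it left 10.9% higher and 40% lower.

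The nst1 nst3 arrays did not vary alike for all of these genes. Relative to the mean of the nst1 nst3 arrays, the median cutin gene stood at -0.17, 0.55, -0.45 and 0.00 on nst1 nst3 arrays 1 to 4 and the median wax gene at -0.20, 0.30, -0.24 and 0.22. SHN3 was likewise highest on nst1 nst3 array 2 and lowest on array 3. MYB16 and MYB94 were instead lowest on array 1 and highest on array 3, and MYB96 was, like SHN3, highest on array 2 and lowest on array 3. On the transgenic arrays the same medians were 1.96, 1.32, 1.43 and 1.39 for cutin genes and 1.03, 0.88, 1.00 and 0.92 for wax genes, with array 1 the highest for both, as it was for SHN3, MYB16 and PDF2.

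**Figure D4:**
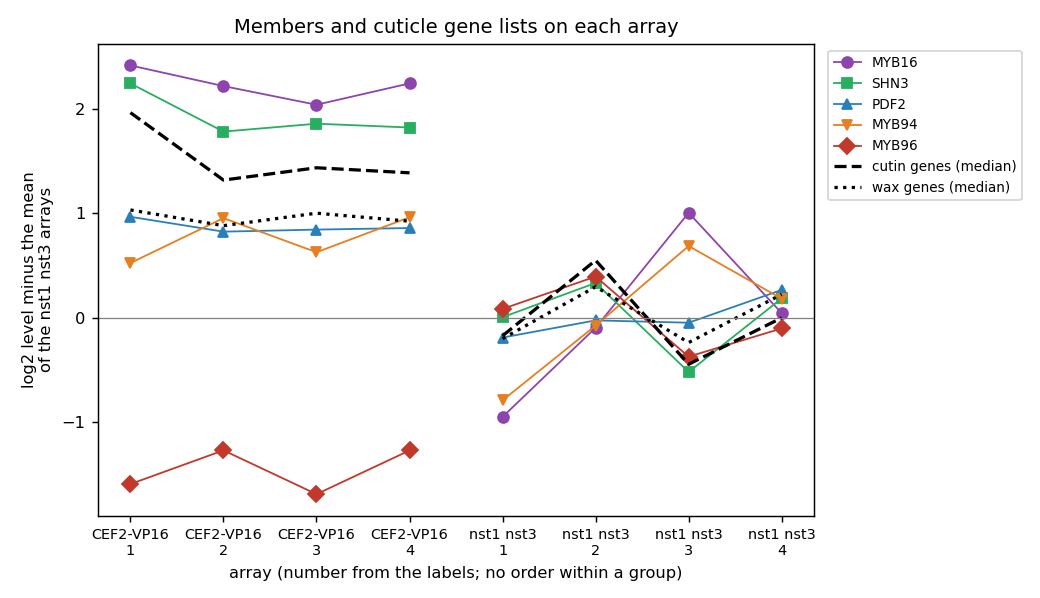
Level of 5 members and median level of the tested cutin and wax genes on each array, in log2 units relative to the mean of the nst1 nst3 arrays, with CEF2-VP16 nst1 nst3 arrays on the left. MYB96 runs below 0 on all transgenic arrays and the other lines above 0. On the nst1 nst3 arrays MYB16 and MYB94 peak on array 3, where SHN3 and both medians are lowest. Lines only join values of 1 gene or list, since arrays of a group have no order.

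The genes most like the 3 most changed members were sought by Pearson's r over the 8 arrays, which share the split between genotypes: among 19601 other genes, r was over 0.95 for 1271 with SHN3, 458 with MYB16 and 517 with MYB96. For SHN3 they were ABCG32, an exporter of cutin precursors also known as PEC1 (r = 0.998), AT1G09200, a histone H3.1 gene whose probe may also bind near-identical copies (r = 0.997), and AT2G17300 (r = 0.997). ABCG32 rose by 1.03 ± 0.12. For MYB16 they were AT5G63520, AT5G11550 and TBL23, with r from 0.991 to 0.993. For MYB96 they were AT1G72180, the peptide receptor gene CEPR2, AT1G65240 and AT2G42980, with r from 0.993 to 0.996, and these fell by 0.68, 1.63 and 2.42.

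Markers of other cells in the sample were read alongside. The counts below stand beside 29.5% higher and 24.8% lower among all genes tested, or 10.9% and 40% with spike-in scaling. Of 7 stem vascular and shoot markers, all measured on every array, 5 rose and 1 fell, and their summed signal over the 75th percentile was 28.5 to 31.8 in transgenic stems and 24.0 to 26.9 in nst1 nst3 stems. PXY, ATHB8, REV, CESA7 and KNAT1 rose. APL fell, at -0.36, and SUC2, the brightest of the 7, stood at -0.15 and did not pass. The sum is relative to the 75th percentile, and the median difference of the 7 went from 0.49 to 0.05 with spike-in scaling. Of 7 stomatal markers 4 were tested, none rose and HT1 fell by 0.71. Their summed signal was 1.04 to 1.18 in transgenic stems and 0.951 to 1.63 in nst1 nst3 stems, and SPCH, MUTE and EPF2, which mark young stomatal lineages, were well above background on none of the arrays. Neither of the 2 tested trichome markers passed, the summed signal of the 5 was 5.10 to 6.68 in transgenic stems and 5.91 to 7.92 in nst1 nst3 stems, and the trichome regulator genes GL1 and MYB5 were above background on no array. Most of that sum came from TTG1, with mean levels of 2.26 in transgenic and 2.39 in nst1 nst3 stems. TRY averaged 0.35 and 0.34, and GL1, GL3 and MYB5 lay at the floor on every array. Of 6 root and flower markers, PYK10, AP3 and AG were above background on no array, and PI, a petal and stamen factor, stood at -1.10 and did not pass. RHD6 rose by 0.47 but lay at the floor on 3 nst1 nst3 arrays. With spike-in scaling RHD6 read 0.19 and did not pass. The sum of the 6 root and flower markers was 0.163 to 0.685 in transgenic stems and 0.542 to 0.781 in nst1 nst3 stems. With spike-in scaling 1 vascular marker was called higher and 2 lower, 2 stomatal and 1 trichome marker lower, and PI lower at -1.54. The part of these cell types in the differences above was not tested.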

How the data were processed

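Total RNA (200 ng) of stems was labelled with Cy3 and read on single-colour Agilent arrays, per the labels' protocols. The deposited processed signal is an intensity on a linear scale, background-corrected by Agilent Feature Extraction 11.5.1.1 on a TAIR10 grid, per the file headers; the submitters' processing notes name version 9.1.3.1. Set against the scanner values, the authors' deposited table proved to be on a natural log scale, as the processed signal's logarithm minus 7.15 for each transgenic and 7.39 for each nst1 nst3 array; the sources used here do not say how these constants were chosen. That table served as an alternative.

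The members, lists and tests were chosen with earlier results of these data known. Signals were divided by the array's 75th percentile, floored at 0.01 of it and log2-transformed. Outlier-flagged spots were dropped and repeated spots of a probe averaged. Probes well above background on at least 4 of 8 arrays entered. Of 43603 probes 34348 were matched to loci by RefSeq accession through a TAIR10.1 gene table, and no coordinates are given because the builds are named differently. The brightest probe stood for a gene. Groups were compared over 19609 genes with lmFit and eBayes of limma 3.58.1 (R 4.3.3), without covariates, and p-values were Benjamini-Hochberg adjusted. Standard errors and intervals are those of the moderated fit. A rule named all members and up to 3 called genes in each direction of each list other than the cell type markers. For the 3 most changed members it also named the 3 genes of highest r. Other genes were named outside that rule with their values known, among them DCR, KCS9, KCS20, PDF1, MYB60, MYB17, AT2G33510 and single cell type markers. The fit was tested on simulated data. Alternatives changed the background correction, scaling, source, filter, floor, probe rule, variance model, pairing and arrays. Fitting every probe on its own and the comparison of relatives were added after seeing the data. The 4 arrays per group limit the precision.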

Additional observations from a re-analysis of the deposited data

Results flagged for a closer look

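In 6 of 43 groups of 4 arrays examined for the members and named genes, 1 array lay far from the other 3 for a gene, by Dixon's test at the 95% level; chance gives about 1 group in 20. On transgenic array 1, SHN3 read 0.32 against -0.14 to -0.06 on the other 3, FDH read 1.97 against 1.72 to 1.76, and WSD1 read -1.13 against -1.92 to -1.88. On nst1 nst3 array 2, LTL1 read -4.27 against -6.64 to -6.61 and CYP86A7 read -4.94 against -6.64 to -6.54, where the other arrays were at or near the floor. On nst1 nst3 array 4, FDH read 1.40 against 1.23 to 1.24 on the others.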

How the results depend on the processing

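SHN3, MYB16 and MYB96 kept their direction and passed under every alternative run. Scaling on spike-in probes changed most: 2 members were called higher in place of 5 and 10 wax genes in place of 19, 2129 of all genes rose and 7845 fell in place of 5776 and 4858, ATML1 turned to -0.0089, ALE2 to -0.0747, and PDF2 (0.44) and MYB106 (0.72) did not pass. ATML1 also missed the threshold in the authors' value table (0.44) and as the mean of its probes (0.18), and its dimmer probe gave -0.0735. MYB106 missed it with no filter on dim probes and without nst1 nst3 arrays 2 and 3 together (0.91 both times), and could not be fitted with the filter on all 8 arrays. MYB106 ran from 0.63 to 1.12 in the fits without 1 array. MYB94 passed in the authors' value table (0.78), with array weights (0.77) and without nst1 nst3 arrays 2 and 3 together (1.07), and ran from 0.50 to 0.99 without 1 array. Leaving out 1 array gave 4 to 6 members higher, 1 lower, 15 to 16 cutin genes and 17 to 21 wax genes. The authors' value table gave 4224 genes higher and 2981 lower. No label says whether the replicate number pairs the arrays. Deviations of same-numbered arrays correlated at -0.0443, -0.199, 0.157 and -0.396 over 19609 genes, which showed no common pairing but cannot exclude a weak one. With the replicate number as a block 5 members rose, 1 fell, and 13 cutin and 17 wax genes rose. In that fit 4715 of all genes rose and 3904 fell. Dim signal limits SHN1, SHN2 and MYB106. The planned mean signals were not among the columns, so normexp used median signals.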
